A study of Homo sapiens with 2 samples.

Results

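The mitosis and G2/M genes were followed in ACHN, a human cell line established from a renal cell carcinoma. They are 59 genes named in a hand-written list of mitotic kinases, cyclins, and genes of the spindle, kinetochore, condensin complex and cytokinesis. All 59 were found by symbol among the 12014 genes of the deposited tables, and all 59 passed a filter of a mean of at least 1 FPKM, which 10702 genes passed. FPKM divides a gene's sequenced fragments by its length and by the number of fragments read, so levels can be compared between genes.

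RNA-seq was performed on 1 library of cells carrying an shRNA against KIAA1429 (shKIAA1429) and 1 library of cells carrying a control shRNA (shNC). Both cell lines were made by lentiviral infection and puromycin selection, and which of the study's KIAA1429 shRNAs was sequenced is not named. The labels call the first line a knockout, whereas the study's methods describe a knockdown. KIAA1429, listed under its current symbol VIRMA, is the scaffold of the complex that writes N6-methyladenosine on mRNA. The study followed proliferation and the phases of the cell cycle after its knockdown, and the genes below are those that cells transcribe for division. The study reported weaker proliferation and fewer colonies of knockdown ACHN and Caki-1 cells, and smaller tumours from knockdown ACHN cells in mice. By flow cytometry it described more knockdown cells in G1 and fewer in G2/M, and Ki-67 staining was weaker in its knockdown xenografts. Those are measures of growth, cell fractions and protein staining. The mRNA levels below, mostly higher with shKIAA1429, are a different measure, and how they relate to those results was not tested.

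With 1 library per group no difference has a replicate check, no error can be given, and no p-value was computed. The depth is unknown, because the tables hold no counts. A pseudocount of 1 was added to every FPKM, and the log2 change is shKIAA1429 relative to shNC. For genes with low levels the pseudocount makes this value smaller than the plain log2 ratio. KIAA1429 itself was at 3.92 FPKM with shNC and 3.22 FPKM with shKIAA1429, a log2 change of -0.22, so the targeted transcript was only slightly lower in the library labelled as its knockdown. By RT-qPCR and western blot, the study reported reduced KIAA1429 mRNA and protein in its knockdown ACHN and Caki-1 lines. The 13 mitochondrial genes took 42.2% of all FPKM with shNC and 34.6% with shKIAA1429. The renal factors PAX8 and PAX2 were at 64.7 and 31.4 FPKM with shNC. Of the 9 genes on the list of renal markers, CA9 was not among the listed genes and 8 were tested. With shKIAA1429, 3 of these were higher (37.5%, against 57.3% of all tested genes) and 5 lower, with a median log2 change of -0.21. Of 7 markers of other cell types only COL1A1 was among the listed genes, at 1.08 FPKM with shNC and 1.62 FPKM with shKIAA1429.

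Cells enter mitosis when cyclin A and cyclin B activate CDK1, which the phosphatases of the CDC25 family release from inhibition. Aurora and Polo-like kinases then drive centrosome and spindle maturation, condensins compact the chromosomes, and kinetochores attach them to microtubules. The spindle checkpoint holds the anaphase-promoting complex back until every chromosome is attached, after which securin and cyclin B are destroyed, separase opens the sister chromatids and the cell divides. The mRNAs of these genes are made mainly in late S phase, G2 and mitosis, so their level in a bulk sample depends both on how many cells are in these phases and on the amount per cell, and the 2 libraries cannot tell these apart.

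Many of the members have a sequence feature in common at their promoters. The cell cycle genes homology region (CHR), with the letters TTTGAA, is a textbook element of G2/M promoters to which the MuvB core of the DREAM complex binds. As the members were listed by hand as genes of mitosis and G2/M, its presence at many of them is no independent result. It was searched on both strands in RefSeq promoter entries of GRCh38.p14, which run from 250 bases before to 50 bases after an annotated start. An entry was found for 53 of the 59 genes. Of these 53 genes, 38 held the motif (71.7%), against 18.2% of the 27305 genes with an entry and 13.0% of the 8457 genes with an entry that were tested here. Windows of 30 bases are shown for members of the roles described below, with genes of small and of large change side by side. Capitals mark the motif, which reads TTCAAA where it lies on the other strand.
CDK1 (chr10:60778453-60778482, plus strand): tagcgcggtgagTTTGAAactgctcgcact
CCNB2 (chr15:59105105-59105134, plus strand): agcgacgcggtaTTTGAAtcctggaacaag
CDC25C (chr5:138331817-138331846, minus strand): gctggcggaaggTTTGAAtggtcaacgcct
PLK1 (chr16:23678848-23678877, plus strand): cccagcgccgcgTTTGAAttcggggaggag
BUB1B (chr15:40161034-40161063, plus strand): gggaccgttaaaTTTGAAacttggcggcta
INCENP (chr11:62123989-62124018, plus strand): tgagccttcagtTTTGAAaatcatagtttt
NDC80 (chr18:2571542-2571571, plus strand): ccggcggagaatTTCAAAttcgaacggctt
KIF11 (chr10:92593090-92593119, plus strand): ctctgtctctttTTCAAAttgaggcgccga
DLGAP5 (chr14:55191565-55191594, minus strand): cggtgcggcaagTTTGAAtttcgtggaggc
MKI67 (chr10:128126435-128126464, minus strand): tcttcgttttcgTTTGAAttgggcgggcgc
ESPL1 (chr12:53268256-53268285, plus strand): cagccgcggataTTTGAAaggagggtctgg
ANLN (chr7:36389830-36389859, plus strand): ctgaaattcaaaTTTGAAcggctgcagagg

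These matches began at position -29 from the annotated start for CCNB2, -30 for CDC25C, -29 for PLK1, -23 for BUB1B, -13 for CDK1 and 4 for DLGAP5, where position 1 is the first transcribed base. Over all entries of the members, 26 matches began between positions -50 and -1 (39.4 per 100 entries) and 12 between positions 1 and 50 (18.2 per 100 entries). Over all 35116 entries the same stretches held 2.62 and 2.22 matches per 100 entries. Genes with several annotated starts contribute several entries, and neighbouring entries can hold the same site. The CCAAT box (CCAAT, both strands), at which NF-Y binds, was found for 42 of the 53 genes (79.2%), against 39.7% of all genes with an entry. Both motifs were found for 31 of the 53 genes (58.5%) and for 8.37% of all genes with an entry. The letters of the cell cycle dependent element (GGCGG, both strands, at any place) were found for all 53 genes, for 61.5% of all genes with an entry and for 93.1% of the tested genes with an entry. For the CCAAT box the share of the tested genes was 43.4%. Matches of different motifs may share bases, for instance where the reverse of the CCAAT box runs into GGCGG, and such matches were counted for both. A match is a description of the sequence and not a measured binding site.

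**Figure D1:**
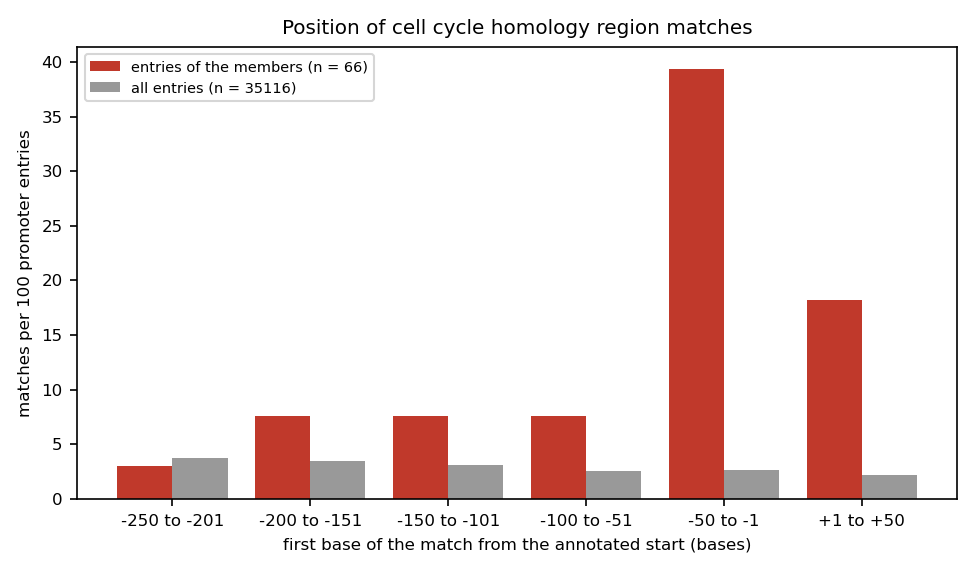
Matches of the CHR letters TTTGAA, on either strand, per 100 promoter entries (vertical axis), by the position of their first base from the annotated start (horizontal axis, bases); red bars stand for the 66 entries of the members and grey bars for all 35116 entries. The members' matches are most frequent just before the start, at 39.4 per 100 entries against 2.62 over all entries.

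The mitosis and G2/M genes were mostly somewhat higher in the shKIAA1429 library, and all differences were below a log2 change of 1 on the deposited scale. Of the 59 genes, 52 were higher with shKIAA1429, against 57.3% of all tested genes, and 7 were lower, against 42.7% of all tested genes. Under the alternative settings that kept all 59 genes, between 48 and 55 were higher, where the share of all genes was 49.7% with the trend of GC content and length taken out (48 members) and 74.6% after rescaling (55 members). Their median log2 change was 0.34, against 0.058 over all 10702 genes, and the median of their levels was 8.12 FPKM in the control and 9.89 FPKM after knockdown. The 59 genes summed to 790.3 FPKM in the control and to 991.3 FPKM after knockdown, a ratio of 1.25. CKS2 alone held 186 FPKM of the first sum, and without it the ratio was 1.28. A log2 change above 0.5 was found for 16 members, against 9.90% of all genes, and a change below -0.5 for 1 member, against 6.12% of all genes. Past a log2 change of 1 there were 0 members in either direction, where 1.61% of all genes were higher and 0.897% lower. After rescaling to a common sum, 2 members passed 1, NDC80 at 1.06 and ECT2 at 1.04. A log2 limit of 1.5, which the study's bioinformatics methods give, was passed by 0.383% of all genes upwards and 0.252% downwards, and by 0 members.

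Scaling multiplies each library by a single factor, which would move all plain log2 ratios by the same amount. Because the pseudocount of 1 is added afterwards, the shift also depends on a gene's levels. After rescaling, NDC80 went from 0.73 to 1.06, the abundant CKS2 from 0.23 to 0.42, and MYC only from -2.42 to -2.41. Where the members lie among all genes is still largely fixed under scaling, and its stability there is no check of the result. The log2 change of 51 of the 59 genes was above the median of all genes, and 34 of them were at or above its 75th percentile. When the FPKM of both libraries were brought to a common sum of 1000000, which raised the median of all genes by 0.18, the members' median became 0.54, the members above 0.5 became 32, against 23.9% of all genes, and again 51 were above the median of all genes. With the 13 mitochondrial genes left out of the rescaling, the members' median was 0.38, and 20 members were above 0.5, against 13.7% of all genes.

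**Figure D2:**
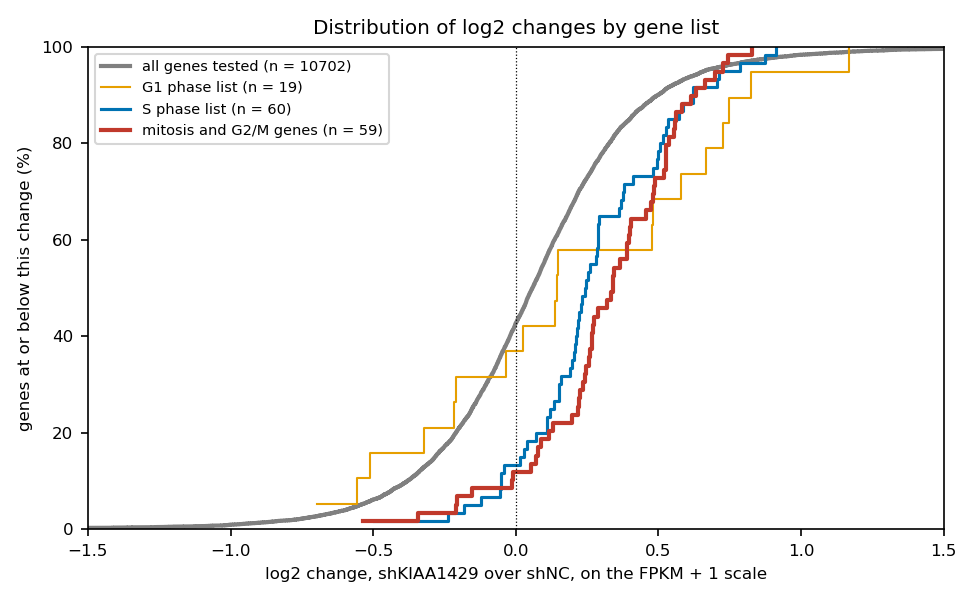
Cumulative share of genes (vertical axis, %) at or below each log2 change of shKIAA1429 over shNC (horizontal axis, FPKM + 1 scale) for the 59 mitosis and G2/M genes, 60 S phase genes, 19 G1 phase genes and all 10702 tested genes. The curve of the mitosis and G2/M genes lies to the right of that of all genes over most of its range, with medians of 0.34 and 0.058, and ends at 0.83 while that of all genes goes on.

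GC content moves with these changes. The members had a median GC content of 42.5% in their longest coding transcript, against 48.5% over all tested genes, and 33 of the 59 lay in the lowest 3 of 10 equal bins of GC content. Across the 10644 genes with an annotated transcript, the log2 change had a Spearman correlation of -0.30 with GC content and 0.19 with transcript length, and across the 59 members of -0.21 and 0.26. The points of these correlations share both libraries. In the bin with the lowest GC content the median change of all genes was 0.25 and that of its 14 members 0.44, and in bin 8 the medians were -0.020 and 0.32 (5 members). In bin 4 the 2 members had a median of 0.030, below the 0.083 of all genes, and in bin 7 the 3 members had -0.014, below the -0.0072 of all genes. Above the median of their own bin were 48 of the 59 genes. With the trend of both properties taken out, the members' median was 0.23, 48 members were higher, and 7 were above 0.5, against 6.80% of all genes.

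**Figure D3:**
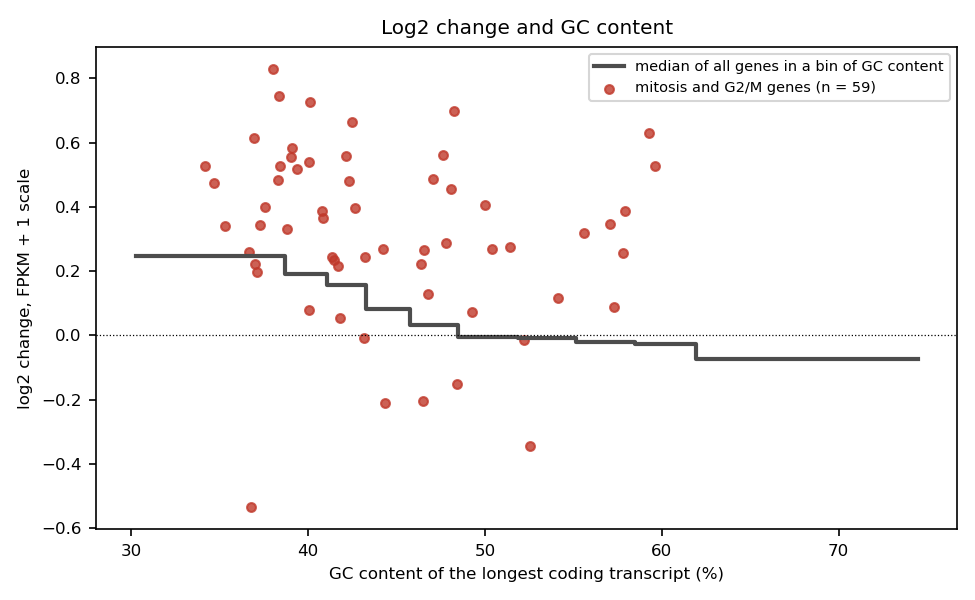
Log2 change of shKIAA1429 over shNC (vertical axis, FPKM + 1 scale) against the GC content of the longest coding transcript (horizontal axis, %); red points are the 59 members and the line is the median of all genes in each of 10 bins of GC content. The line goes from 0.25 at the lowest to -0.075 at the highest GC content, and 48 of the members lie above it.

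The regulators of mitotic entry differed in direction. CDK1, the kinase that drives entry, was at 13.0 FPKM with shNC and 20.4 FPKM with shKIAA1429, a log2 change of 0.61. Its S and G2 phase partner cyclin A2 (CCNA2) was at 10.2 and 15.5 FPKM, a change of 0.56. The mitotic cyclins did not share this difference. Cyclin B1 (CCNB1) was at 18.5 FPKM with shNC and 18.3 FPKM with shKIAA1429, a change of -0.0091 that turned to 0.17 after rescaling. For cyclin B2 (CCNB2) the levels were 13.8 and 11.8 FPKM, a change of -0.21. The activating phosphatases parted in the same manner. CDC25B, which acts in early entry, was at 9.92 and 15.9 FPKM (0.63, the highest change of this role), while CDC25C was at 2.11 and 1.70 FPKM (-0.21). The small CDK-binding subunits were both higher. CKS2 was the most abundant member, at 186 FPKM with shNC and 220 FPKM with shKIAA1429 (0.23), and CKS1B was at 25.8 and 36.6 FPKM (0.49). In all, 5 of the 8 genes of this role were higher, with a median of 0.36. That is 62.5% of the role, close to the 57.3% of all tested genes, while 3 of the 8 were above 0.5, against 9.90% of all genes. For the CKS genes, reads from processed gene copies could have been assigned to them or lost from them.

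The role of mitotic kinases held PLK1, NEK2 and AURKA, with a median of 0.089, close to that of all genes. The kinases BUB1 (0.66), TTK (0.39) and AURKB (0.32) were placed in other roles and differed more, so this median does not stand for all mitotic kinases. PLK1, which acts in centrosome maturation, entry and cytokinesis, was at 13.1 FPKM with shNC and 14.0 FPKM with shKIAA1429, a change of 0.089. NEK2, which separates centrosomes, was at 7.25 and 7.56 FPKM, a change of 0.053 that turned to -0.0051 after centring on the median of all genes and to -0.13 after taking out the trend of GC content and length. AURKA, the kinase of the spindle poles, had the highest change of the role, from 10.1 to 12.4 FPKM (0.27).

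Genes of the spindle checkpoint were higher in 5 of 5 cases, with a median of 0.39. For this small role and those that follow, the counts of higher genes stand beside 57.3% of all tested genes. BUB1, a kinase at the unattached kinetochore, was at 8.90 FPKM with shNC and 14.7 FPKM with shKIAA1429, a change of 0.66 that was above that of 95.1% of all genes. BUB3, its partner, was the most abundant of the role and was at 12.3 and 14.7 FPKM (0.24). MAD2L1, TTK and BUB1B lay between, at 0.52, 0.39 and 0.24. Levels of these 3 were 2.29, 3.01 and 5.53 FPKM with shNC and 3.71, 4.25 and 6.74 FPKM with shKIAA1429.

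The chromosomal passenger complex consists of the kinase Aurora B and 3 subunits that place it on chromosomes and at the midzone, all of them members. AURKB was at 13.3 FPKM with shNC and 16.9 FPKM with shKIAA1429 (0.32). INCENP, the scaffold, had the highest change, from 5.88 to 8.91 FPKM (0.53), and CDCA8 stood at 10.1 and 12.4 FPKM (0.27). BIRC5 (survivin) was almost equal in both, at 6.26 and 6.19 FPKM, a change of -0.014 that turned to 0.16 after rescaling.

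All 8 genes of the centromere and outer kinetochore were higher, with a median of 0.34, although SPC25 turned lower under 1 setting. NDC80, the microtubule-binding subunit of the complex named after it, was at 2.15 FPKM with shNC and 4.20 FPKM with shKIAA1429, a log2 change of 0.73. Its ratio of 1.96 was the highest of all members. Other subunits of the same complex differed less. NUF2 was at 5.83 and 7.60 FPKM (0.33), and SPC25 was at 3.49 and 3.73 FPKM (0.078, and -0.0044 after taking out the trend of GC content and length). SPC24, the subunit outside the list of members, was at 2.50 and 1.72 FPKM (-0.36). SPC24 was picked with its values known. The most abundant gene of the role was CENPF, a coat protein of the outer kinetochore, at 14.4 and 18.8 FPKM (0.37). CENPA, the histone H3 variant that marks centromeres, was at 6.73 and 8.44 FPKM (0.29), and it overlaps SLC35F6 on the same strand, the only member with such an overlap among the listed genes. SGO1 and SGO2, which protect centromeric cohesion, differed by 0.22 and 0.47, and the kinesin CENPE by 0.34.

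Of the 8 kinesins, motor proteins that move along or shorten microtubules, 7 were higher and the median was 0.37. KIF11 (Eg5), which pushes the spindle poles apart, was at 7.09 FPKM with shNC and 12.6 FPKM with shKIAA1429, a change of 0.74. KIF20A (MKLP2), which brings the passenger complex to the midzone, was lower, at 7.08 and 6.27 FPKM, a change of -0.15 that became 0.0064 after rescaling. Its relative KIF20B was the most abundant of the role, at 9.32 and 13.9 FPKM (0.53). KIF14 and KIF23, which act in cytokinesis, differed by 0.48 and 0.48. KIF2C, KIF4A and KIF18A, which act on microtubule ends and chromosome arms, differed by 0.27, 0.22 and 0.22, and KIF18A was at -0.0050 after taking out the trend of GC content and length. Reads of KIF4A cannot always be told from those of its near-identical copy KIF4B.

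The 9 other spindle proteins had a lower median, 0.26, and held the lowest member. CKAP2 (ENSG00000136108, chromosome 13), which stabilizes spindle microtubules, was at 13.4 FPKM with shNC and 8.94 FPKM with shKIAA1429, a change of -0.53 that was lower than in all other members and stayed between -0.76 and -0.39 under the settings tried. TPX2, which activates Aurora A on the spindle, was abundant in both libraries, at 29.7 and 32.5 FPKM (0.13). DLGAP5 (HURP), which stabilizes kinetochore fibres, had the highest change of the role, from 5.18 to 7.90 FPKM (0.53). The others, GTSE1, ASPM, TACC3, HMMR, CKAP5 and NUSAP1, differed by 0.12 to 0.40, and ASPM was at -0.098 after taking out the trend of GC content and length.

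The genes of chromosome structure had a median of 0.55, with 6 of 7 higher. This was the highest median of the roles, but with genes of a mean of at least 5 FPKM alone it was 0.48, below the 0.54 of cytokinesis. MKI67, the gene of the Ki-67 antigen by which dividing cells are stained, was at 8.34 FPKM with shNC and 14.2 FPKM with shKIAA1429, a change of 0.70. TOP2A, the topoisomerase that untangles sister chromatids, was at 26.5 and 40.2 FPKM (0.58). The condensin I subunits were unlike one another. NCAPH and NCAPG were at 6.37 and 3.23 FPKM with shNC and at 9.88 and 5.21 FPKM with shKIAA1429, changes of 0.56 and 0.55. The ATPase subunits SMC2 and SMC4, which condensin II also uses, differed by 0.40 and 0.34. NCAPD2, the most abundant of the role, was lower, at 30.6 and 23.9 FPKM (-0.34), and it was lower under every setting tried.

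At anaphase, 4 of 4 genes were higher, by small amounts and with a median of 0.37. UBE2C, the ubiquitin-conjugating enzyme of the anaphase-promoting complex, was at 29.5 FPKM with shNC and 39.3 FPKM with shKIAA1429 (0.40). CDC20, the activator of that complex, was the most abundant, at 32.2 and 42.5 FPKM (0.39). Separase and its inhibitor differed in size of change. ESPL1 (separase) was at 4.09 and 5.47 FPKM (0.35), and PTTG1 (securin) was at 18.6 and 19.6 FPKM (0.072). PTTG1 has a near-identical copy, PTTG2, with which reads could have been shared.

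The 3 cytokinesis genes were among the higher members, with a median of 0.54. ECT2 (ENSG00000114346, chromosome 3), the exchange factor that activates RhoA at the division plane, had the highest change of all 59 genes. It was at 16.1 FPKM with shNC and 29.4 FPKM with shKIAA1429, a change of 0.83, higher than in 97.2% of all genes. ANLN (anillin), which links the contractile ring to the membrane, was at 19.4 and 28.6 FPKM (0.54). PRC1, which bundles midzone microtubules, was at 8.74 and 12.4 FPKM (0.46).

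**Figure D4:**
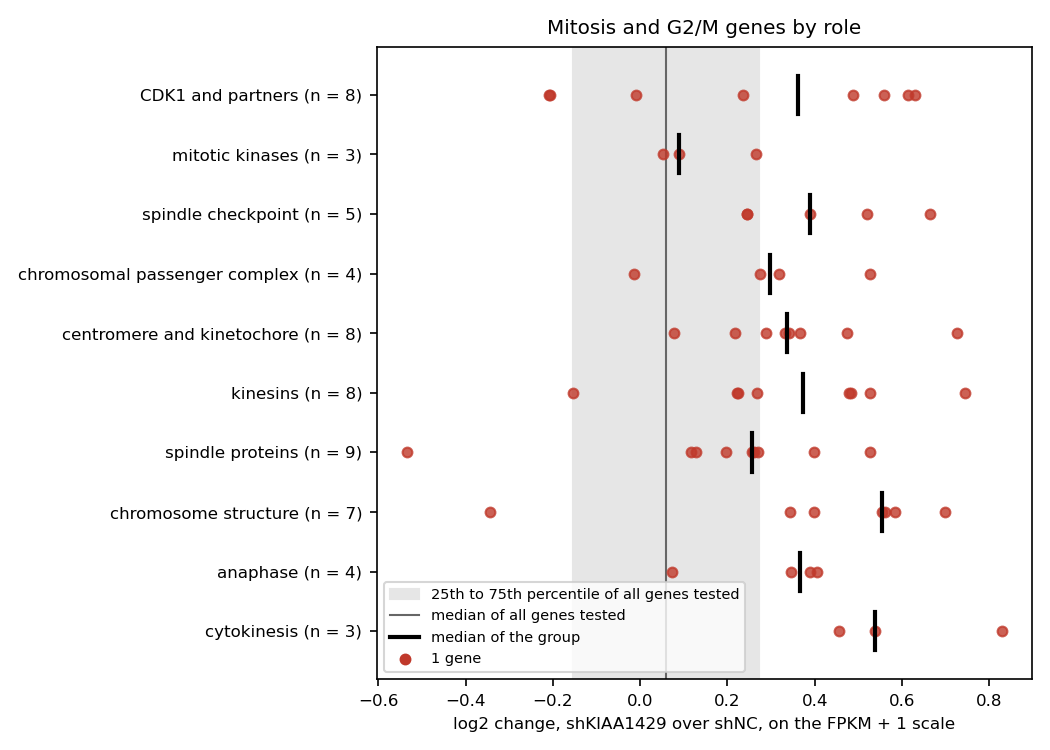
Log2 change of shKIAA1429 over shNC (horizontal axis, FPKM + 1 scale) of each of the 59 members, by role; points are genes, black bars the medians of the groups, the thin line the median of all tested genes (0.058) and the shaded band their 25th to 75th percentile. Group medians run from 0.089 for the mitotic kinases to 0.55 for chromosome structure, and CKAP2 at -0.53 is the point farthest to the left.

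**Figure D5:**
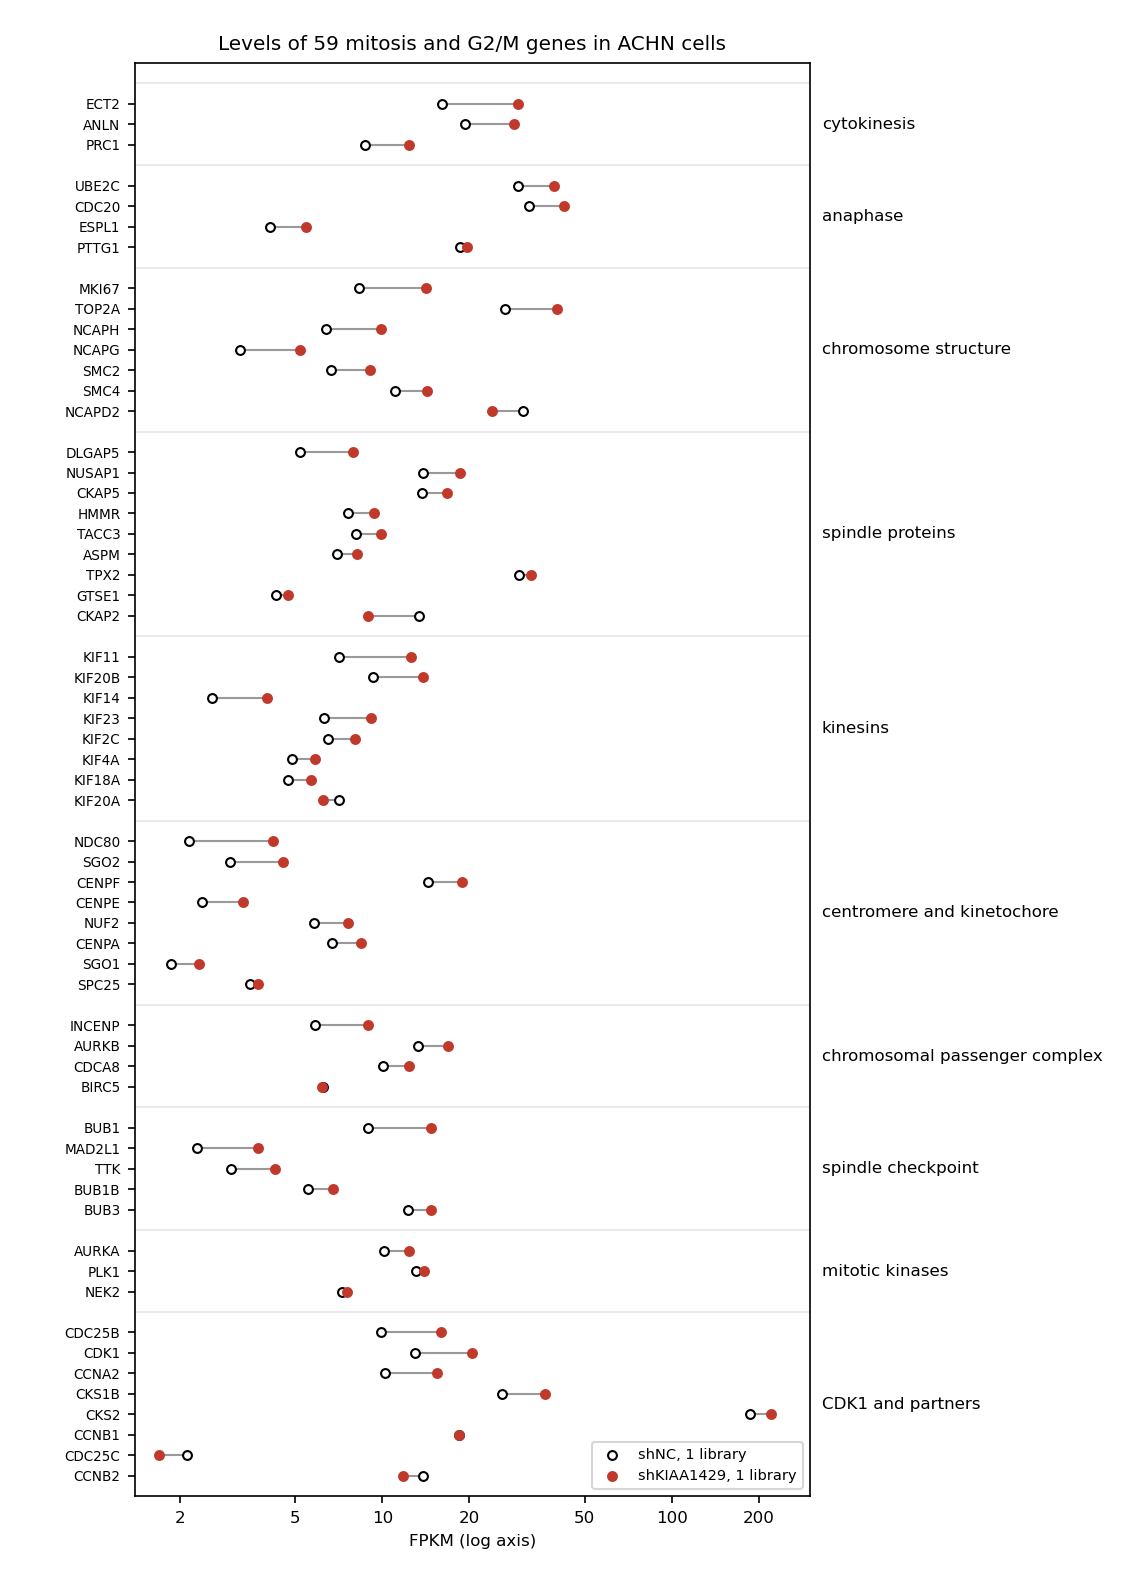
FPKM (horizontal log axis) of the 59 members, grouped by role and ordered by change within a role; open circles are the shNC library, red circles the shKIAA1429 library, 1 library each. Levels with shNC run from 1.87 FPKM for SGO1 to 186 FPKM for CKS2, and in 52 genes the red circle lies to the right.

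The 7 members that were lower with shKIAA1429 were CKAP2, NCAPD2, CCNB2, CDC25C, KIF20A, BIRC5 and CCNB1. Under the settings tried, 4 of them (CKAP2, NCAPD2, CCNB2 and CDC25C) were lower and 48 members higher throughout, while the other 7 members changed sign under at least 1 setting. Lower members were found both with and without the motif TTTGAA. Those with it were NCAPD2, CCNB2 and CDC25C, 3 of 38 genes, and those without it were CKAP2, KIF20A and CCNB1, 3 of 15 genes, and BIRC5 was not searched. The 38 genes with TTTGAA in a promoter entry ran from -0.34 (NCAPD2) to 0.83 (ECT2), with a median change of 0.38, and the 15 genes without it ran from -0.53 (CKAP2) to 0.66 (BUB1), with a median of 0.27. Above 0.5 were 12 of the 38 and 4 of the 15. With TTCGAA counted as well, 14 of 41 genes with either motif and 2 of 12 without were above 0.5. From 100 bases before the start on, 11 of 35 genes with TTTGAA and 5 of 18 without it were above 0.5. Their medians were 0.39 and 0.26. With TTCGAA counted in that stretch too, 13 of 38 and 3 of 15 were above 0.5. The share of all tested genes above 0.5 was 9.90%. Over all tested genes with an entry, the medians with and without TTTGAA anywhere in an entry were 0.10 and 0.053.

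Further genes of mitosis, from 7 lists that hold none of the members, were higher in 86 of 110 cases (78.2%, against 57.3% of all tested genes), with a median change of 0.27. Among these lists, that of activators and repressors at G2/M promoters held the gene with the largest change in either direction. FOXM1, a transcription factor that activates genes of late G2 and mitosis, had 33.2 FPKM in the control and 12.5 FPKM after knockdown, a ratio of 0.376 and a change of -1.34. E2F7, a repressor of cell cycle genes, was at 4.32 and 17.6 FPKM, a change of 1.81. Of the 16 genes of this list, 11 were higher (68.8%) and 5 lower, with a median of 0.11. MYBL2 (B-MYB), which joins the MuvB core at G2/M promoters and was chosen after its values were seen, was at 9.99 and 15.4 FPKM (0.58).

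In the other 6 lists no single gene differed as much, although 5 of them had higher medians. The counts of higher genes below stand beside 57.3% of all tested genes. Cohesin and condensin II genes were higher in 15 of 15 cases, with a median of 0.38, led by SMC3 (24.9 and 39.7 FPKM, 0.65) and STAG2 (0.57). Other genes of the outer kinetochore were higher in 15 of 16 cases, with a median of 0.32, led by SKA1 (1.67 and 3.78 FPKM, 0.84) and PMF1 (0.57), which overlaps another listed gene on its strand. Of 19 genes of the inner centromere and of CENPA loading, 14 were higher, with a median of 0.27. CENPU was at 5.18 and 10.1 FPKM (0.85), and HJURP, the chaperone of CENPA, differed by 0.67. Among 16 other genes of cytokinesis and kinesins, 14 were higher, with a median of 0.19, among them the formin DIAPH3 (0.74) and RACGAP1 (12.5 and 20.2 FPKM, 0.65), the partner of KIF23. Of 11 other regulators of entry, 8 were higher, with a median of 0.24, led by PLK4 (0.50) and CDC25A (0.48). The anaphase-promoting complex and its regulators stood at the level of all genes. Only 9 of these 17 genes were higher, with a median of 0.0034, although ANAPC13 was at 18.9 and 37.6 FPKM (0.96) and FBXO5 (EMI1), an inhibitor of the complex, differed by 0.63.

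Of the S phase genes, which act in DNA replication, 52 of 60 were higher, against 57.3% of all tested genes, with a median of 0.24. They were led by CLSPN (2.23 and 5.08 FPKM, 0.91) and CDC6 (4.91 and 9.82 FPKM, 0.87). Above 0.5 were 13 of them, against 9.90% of all genes. The S phase and the mitosis lists therefore had like shares of higher genes, 86.7% and 88.1%, and whether their changes differ cannot be tested with these libraries. MYC, which the study followed as a target of KIAA1429, was at 28.5 FPKM with shNC and 4.53 FPKM with shKIAA1429, a change of -2.42.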

How the data were processed

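Poly(A) RNA of 2 libraries, 1 per group, was sequenced by the authors in paired-end, strand-specific form. The authors deposited FPKM per gene, and the lowest value of a gene in its higher library was 0.500 FPKM. The submitters' processing notes name cutadapt 1.9, HISAT2 2.0.4 and StringTie 1.3.4d, besides DESeq2 and edgeR, with no roles. The genome build is not named in the sources used here. The deposited positions are not those of GRCh38.p14, on which the promoter windows are given. CDK1 starts at 62538089 on chromosome 10 in the deposited data, while its window above lies at 60778453-60778482. FPKM keeps no counts, so the depth is unknown.

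The log2 change, with a pseudocount of 1, was computed where the mean of both libraries reached 1 FPKM. For 7 symbols on several rows the most abundant row was taken. No test was run. The members, lists and limits were chosen with earlier results of these data known. Named were, for each role, the highest, lowest and most abundant member, besides MKI67, AURKB, CDK1, CCNB1, PLK1, TOP2A, KIAA1429 and MYC, and up to 2 genes with the largest change of each further list; the other members are given for completeness. GC content and length came from GENCODE 29, matched by identifier for 99.5% of the tested genes, and their trend was removed by medians of 10 by 10 bins. Promoter entries were from RefSeq (GRCh38.p14). In 57 of the 66 entries of members, bases after the start were found in a GENCODE 29 transcript of the gene in the same direction, and in 0 entries in reverse. Alternatives were another pseudocount, centring, rescaling with and without the mitochondrial genes, other filters, summed rows, and leaving out overlapping genes. The filter and the log2 change under the main settings were tested on simulated data with large changes planted in the more abundant genes. The simulation did not cover rescaling, trend removal, overlapping genes, the gene lists or the promoter search. Python 3.11.15, NumPy 2.4.6, pandas 2.3.3 and matplotlib 3.10.9 were used.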

Additional observations from a re-analysis of the deposited data

How the results depend on the processing

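No paired analysis was possible because each group has 1 library, and for the same reason no library could be left out. The members' median of 0.34 lay between 0.23 and 0.54, and its distance from the median of all genes between 0.23 and 0.31. After rescaling to a sum of 1000000 the members' median was 0.54 with 32 members above 0.5 and 2 above 1, and the medians of the roles were 0.55 for CDK1 and its partners, 0.27 for mitotic kinases, 0.63 for the spindle checkpoint, 0.49 for the passenger complex, 0.55 for the kinetochore, 0.59 for kinesins, 0.45 for spindle proteins, 0.78 for chromosome structure, 0.57 for anaphase and 0.74 for cytokinesis. The lists for S phase, G1 phase and further mitosis genes were then at 0.44, 0.35 and 0.48, and CCNB1, BIRC5 and KIF20A turned to 0.17, 0.16 and 0.0064. With the 13 mitochondrial genes left out before rescaling, the members' median was 0.38, with 20 members above 0.5 and 0 above 1. Without these genes the libraries summed to 163587 FPKM with shNC and 163171 FPKM with shKIAA1429. With them the sums were 283046 and 249409 FPKM.

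After taking out the trend of GC content and length, the members' median was 0.23 with 7 above 0.5, against 6.80% of all genes, the spindle checkpoint was at 0.23, the kinetochore at 0.19, kinesins at 0.22, spindle proteins at 0.11, chromosome structure at 0.37, cytokinesis at 0.36 and further mitosis genes at 0.14, while NEK2, SPC25, KIF18A and ASPM turned to -0.13, -0.0044, -0.0050 and -0.098. Centring left 9 members above 0.5, against 7.64% of all genes, and turned NEK2 to -0.0051 and the anaphase-promoting complex list to -0.055. A mean FPKM of at least 5 kept 47 members and moved CDK1 and its partners to 0.49, the spindle checkpoint to 0.24, kinesins to 0.27 and the G1 phase list to 0.48, and the list of entry regulators turned to -0.069 with 3 genes left. A limit of 0.5, 1 or 1.5 in place of 0 left 16, 0 and 0 members. From 100 bases before the start on, GGCGG was found for 92.5% of the members in place of 100%. For these shifts the cause was not tested. Comparing members with their own bin of GC content, and leaving CKS2 out of the sum, were chosen after seeing the data.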

Other observations

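The G1 phase list holds cyclins, kinases and inhibitors that act before S phase. Of 19 genes, 12 were higher with shKIAA1429 (63.2%, against 57.3% of all tested genes) and 7 lower, with a median log2 change of 0.14. Cyclin D1 (CCND1) was at 42.4 FPKM with shNC and 96.6 FPKM with shKIAA1429, a change of 1.17, and CDK2 was at 8.98 and 16.7 FPKM (0.82). The inhibitors of cyclin-dependent kinases on this list were looked at after their values were seen, and they differed in direction. CDKN1A (p21) was at 91.0 and 151 FPKM (0.73) and CDKN2B at 4.93 and 5.04 FPKM (0.025). CDKN1B, CDKN1C, CDKN2C and CDKN2D were lower, with log2 changes of -0.32, -0.56, -0.51 and -0.21. Their levels were 42.7, 1.60, 5.07 and 2.59 FPKM with shNC and 34.0, 0.767, 3.26 and 2.10 FPKM with shKIAA1429. CDKN1C, with the largest of these decreases, thus lay just above the filter of a mean of 1 FPKM.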
